A study of Mus musculus with 4 samples.

Results

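The 9 genes described here regulate how a cell dies, and were taken by name from the authors' gene table. They are Bcl2, Bcl2l1, Mcl1, Bax, Bak1, Bnip3, Bnip3l, Ripk3 and Gsdmd, and all 9 were found among the 48432 rows of that table. The RNA came from heart muscle cells (cardiomyocytes) that were freed from the heart by Langendorff perfusion, in which enzyme is passed through the coronary vessels. The 4 libraries formed 2 groups of 2. The control group, called MHC cells here, carried the MHC genotype alone, and the other group, labelled RbFox2 or Rbfox2_OE, overexpressed RBFOX2, a splicing regulator whose non-muscle isoform is named in the study's title. Mice of both groups were C57BL x FVB and ate a doxycycline diet for 3 days, so the diet is shared by both. The labels do not give the age of the mice, the promoter that drives the transgene, the number of founder lines or whether animals were pooled.

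The BCL2 family decides whether the outer membrane of mitochondria stays closed. BCL2, BCL-XL (from Bcl2l1) and MCL1 hold the pore-forming proteins BAX and BAK (from Bak1) in check, and once those open the membrane, cytochrome c leaves and caspases are activated. BNIP3 and its relative NIX (from Bnip3l) sit on the same membrane and mark mitochondria for removal by autophagy, and BNIP3 has been tied to the loss of heart muscle cells after oxygen shortage. RIPK3 and gasdermin D (from Gsdmd) serve lytic death: RIPK3 phosphorylates MLKL in necroptosis, and gasdermin D, cut by inflammatory caspases, forms the pores of pyroptosis.

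The overexpressed protein binds the RNA word UGCAUG, so the annotated transcripts of the 9 genes were searched for it, written TGCATG, on the sense strand. The longest protein-coding GENCODE M21 transcript of each gene on GRCm38 was used. The word was found in 3 of the 9 genes, always in the 3′ UTR. Each site is shown with up to 12 bases on either side and the word in capitals, all on the minus strand.
Bcl2, chr1:106541133-106541162: cctaggatttcaTGCATGtttggttaaacc
Bcl2, chr1:106540311-106540340: cagagagccatcTGCATGtagttcatattt
Bak1, chr17:27020730-27020759: ataccccaacatTGCATGgtgctactgaac
Bak1, chr17:27020421-27020450: actgtaggagacTGCATGacctacttcacc
Bnip3l, chr14:66986898-66986927: tcatgtgttaccTGCATGtgaatttctcat
Of the longest transcripts of all 21901 protein-coding genes, 51.6% hold the word. Among transcripts within 10% of the length of the Bcl2 transcript (7191 bases) the share was 86.2%, against 47.6% for Bak1 (2387 bases) and 58.7% for Bnip3l (3259 bases). For the genes without the word, the shares at like length ran from 23.6% (Bax) to 61.2% (Mcl1). A match is a run of letters and not a measured binding site. Introns, where splicing regulators also bind, were not searched.

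Bnip3 is a known target of the hypoxia-inducible factors, and Ripk3 was among the genes with higher values, so the 250 bases before the RefSeq start of each (GRCm38.p6) are shown. Both lie on the minus strand and are written 5′ to 3′ along the gene. Capitals mark the core of the hypoxia response element, searched as ACGTG and GCGTG on both strands.
Bnip3, chr7:138909507-138909756: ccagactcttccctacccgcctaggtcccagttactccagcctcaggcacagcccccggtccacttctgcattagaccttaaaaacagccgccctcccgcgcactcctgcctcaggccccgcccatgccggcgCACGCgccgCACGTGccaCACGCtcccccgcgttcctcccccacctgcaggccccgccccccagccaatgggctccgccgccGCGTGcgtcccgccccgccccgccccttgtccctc
Ripk3, chr14:55788858-55789107: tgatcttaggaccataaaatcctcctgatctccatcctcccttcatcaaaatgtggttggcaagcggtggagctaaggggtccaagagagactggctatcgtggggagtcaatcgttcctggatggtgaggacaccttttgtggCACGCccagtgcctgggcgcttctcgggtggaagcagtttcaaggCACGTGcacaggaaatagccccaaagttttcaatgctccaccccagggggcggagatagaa
The Bnip3 window holds 5 matches and the Ripk3 window 3, where the palindrome CACGTG counts once on each strand. The Bax window holds 2, 1 of the 3 Bcl2l1 windows holds 1, and the other 5 windows, of Bcl2, Bcl2l1, Mcl1 and Bak1, hold none. Of all 32851 windows of 250 bases, 38.6% hold at least 1 match, 6.58% at least 3 and 1.01% at least 5. The table of promoters matched 7 of the 9 genes, with 9 windows, and Bnip3l and Gsdmd were not matched.

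The values are FPKM, fragment counts divided by transcript length and by library size, so levels can be compared between genes. For each group the authors gave 1 pooled FPKM per gene, between 2 bounds whose level is not stated, so there is no value per library, no replicate spread and no test between the groups. Each value below is followed by the authors' bounds, and a difference is described by whether the bounds of the groups overlap. Where a pair of values is given without group names, the value of MHC cells comes first. A log2 ratio sets Rbfox2 OE cells over MHC cells after adding 1 FPKM to both, which understates the difference of low genes. All 9 genes had the status OK in both groups. The overexpressed gene, Rbfox2, measured 14.7 FPKM in MHC cells and 293 FPKM in Rbfox2 OE cells, with separate bounds. Markers of cardiomyocytes were the most abundant of the marker lists, led by Myl2 at 24688 FPKM in MHC cells and 18007 FPKM in Rbfox2 OE cells. Myh6 and Mb had no estimate in either group. The median log2 ratio of the 11697 genes whose mean reached 1 FPKM was -0.06, and rescaling to a sum that leaves out mitochondrial and the most abundant genes shifted the Rbfox2 OE values up by 0.15 on the log2 scale.

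Of the 9 genes, Gsdmd and Ripk3 were higher in Rbfox2 OE with separate bounds, none was lower with separate bounds, and 7 had overlapping bounds. Over all genes compared, 6.67% were higher with separate bounds and 9.33% lower. Gsdmd alone was at least 2-fold apart, in either direction, on the log2 scale used, against 17.0% of all genes. The log2 ratio was above 0 for 8 of the 9 genes and below 0 for Bnip3, with a median of 0.36. Bcl2 did not reach a mean of 1 FPKM, and Ripk3 reached it only through the Rbfox2 OE value, so its presence among the genes compared depends on that value.

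**Figure D1:**
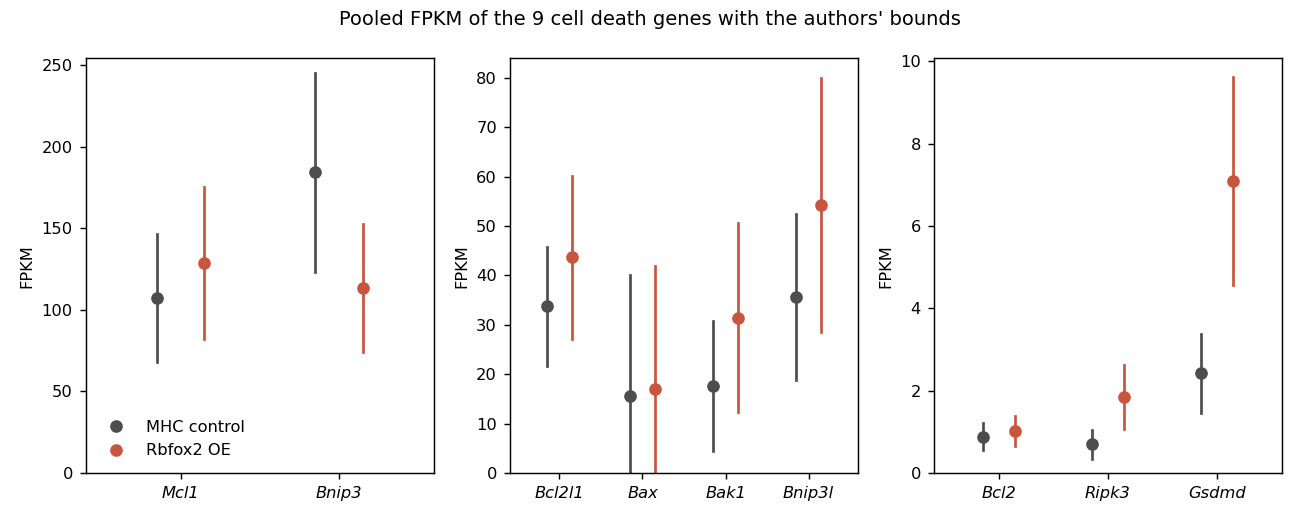
Pooled FPKM (points) and the authors' bounds (lines) of the 9 genes in MHC control and Rbfox2 OE, in 3 panels with separate linear axes that start at 0. The bounds of Ripk3 and Gsdmd lie apart between the groups, and those of the other 7 genes overlap.

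The pro-survival genes were headed by Mcl1, which codes for a short-lived BCL2 relative that heart muscle cells need. Mcl1 (ENSMUSG00000038612, chr3:95658788-95663176, plus strand) measured 107 FPKM in MHC cells (bounds 68.2 to 146) and 129 FPKM in Rbfox2 OE cells (82.2 to 175). The Rbfox2 OE value lay within the bounds of MHC cells, and the log2 ratio was 0.26. Bcl2l1 (ENSMUSG00000007659, chr2:152780668-152831728, minus strand), which gives BCL-XL and, by another splice site, the pro-death BCL-XS, measured 33.7 FPKM (21.6 to 45.8) and 43.7 FPKM (27.2 to 60.1). Its log2 ratio was 0.36 with overlapping bounds, and a gene-level value does not separate its splice forms.

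Bcl2, the founding member of the family (ENSMUSG00000057329, chr1:106538178-106714274, minus strand), was close to the lowest of the set. It measured 0.884 FPKM in MHC cells (0.558 to 1.21) and 1.01 FPKM in Rbfox2 OE cells (0.643 to 1.37), a log2 ratio of 0.09 with overlapping bounds. The pro-survival transcripts of the set were therefore mostly Mcl1 and Bcl2l1. Mcl1 was 121 times the level of Bcl2 in MHC cells (56.3 to 263 from the farthest bounds) and 128 times in Rbfox2 OE (59.8 to 272). Bcl2l1 was 38.1 times Bcl2 in MHC cells (17.9 to 82.1) and 43.3 times in Rbfox2 OE (19.8 to 93.5). Both proportions differed between the groups by far less than their own ranges.

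The pore-forming effectors stood near each other in MHC cells. Bak1 (ENSMUSG00000057789, chr17:27019810-27029009, minus strand) measured 17.7 FPKM in MHC cells (4.47 to 30.9) and 31.5 FPKM in Rbfox2 OE cells (12.3 to 50.6). The ratio of 1.78, behind those of Gsdmd and Ripk3, gave a log2 ratio of 0.80, and the bounds overlapped widely. Bax (ENSMUSG00000003873, chr7:45461697-45466898, minus strand) measured 15.6 FPKM (0 to 40.0) and 16.9 FPKM (0 to 42.0), a log2 ratio of 0.11.

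Bax and Bak1 had the widest bounds of the 9 genes. The upper bound lay 157% above the value of Bax and 74.7% above that of Bak1 in MHC cells, where the median gene had 38.4%. The authors' table places Bax in a locus of 7 genes and Bak1 in a locus of 3. Bcl2 and Bnip3 lie in loci of 4 and 3 genes. Their upper bounds lay 36.9% and 33.2% above the value in MHC cells. Whether a shared locus widened any of these bounds was not tested. Bak1 overlaps Ggnbp1, which lies on the opposite strand and measured 29.5 FPKM in MHC cells and 19.4 FPKM in Rbfox2 OE cells, both with wide bounds. With lower bounds at 0 in both groups, no difference in Bax in either direction could have given separate bounds. For Bak1, bounds of this relative width would have come apart only above a ratio of 4.47. The data therefore leave the effectors poorly measured. The summed level of Bcl2, Bcl2l1 and Mcl1 was 4.27 times that of Bax and Bak1 in MHC cells and 3.58 times in Rbfox2 OE. This is without an error, since the bounds of sums are not known, and pro-survival relatives outside the 9 genes, such as Bcl2l2, were not in the sum.

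The BNIP3 pair differed in opposite directions, with overlapping bounds for both. Bnip3 (ENSMUSG00000078566, chr7:138890836-138909519, minus strand) was the most abundant of the 9 genes in MHC cells, at 184 FPKM (123 to 245), and measured 113 FPKM in Rbfox2 OE cells (74.0 to 152). Its ratio of 0.615 gave a log2 ratio of -0.70, above that of 18.0% of the genes compared, and bounds of this width would have come apart below a ratio of 0.496. The 2 other genes in its locus of the table did not exceed 0.602 FPKM. Bnip3l (ENSMUSG00000022051, chr14:66985239-67008877, minus strand) measured 35.6 FPKM (18.9 to 52.4) and 54.2 FPKM (28.5 to 80.0), a log2 ratio of 0.59. Bnip3 was 5.17 times the level of Bnip3l in MHC cells (2.35 to 13.0 from the farthest bounds) and 2.09 times in Rbfox2 OE (0.925 to 5.35). The bounds of the pair were thus separate within MHC cells and overlapped within Rbfox2 OE. The ranges of the 2 proportions overlap, so their difference is not settled by these bounds.

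The genes of lytic death were the members with separate bounds, at low levels. Gsdmd (ENSMUSG00000022575, chr15:75862327-75867408, plus strand) measured 2.42 FPKM in MHC cells (1.45 to 3.39) and 7.08 FPKM in Rbfox2 OE cells (4.56 to 9.61). The ratio was 2.93 and the log2 ratio 1.24, above that of 95.7% of the genes compared. Ripk3 (ENSMUSG00000022221, chr14:55784995-55788865, minus strand) measured 0.698 FPKM (0.342 to 1.05) and 1.84 FPKM (1.07 to 2.62), a ratio of 2.64 and a log2 ratio of 0.74. The bounds of Ripk3 missed each other narrowly, at 1.054 against 1.072 FPKM. Its log2 ratio was 1.29 with a pseudocount of 0.1 FPKM and 0.26 with 5 FPKM, the same range for Gsdmd being 1.51 to 0.70. Both Gsdmd and Ripk3 were the only gene in their locus of the authors' table. Gsdmd was 3.46 times Ripk3 in MHC cells and 3.84 times in Rbfox2 OE.

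**Figure D2:**
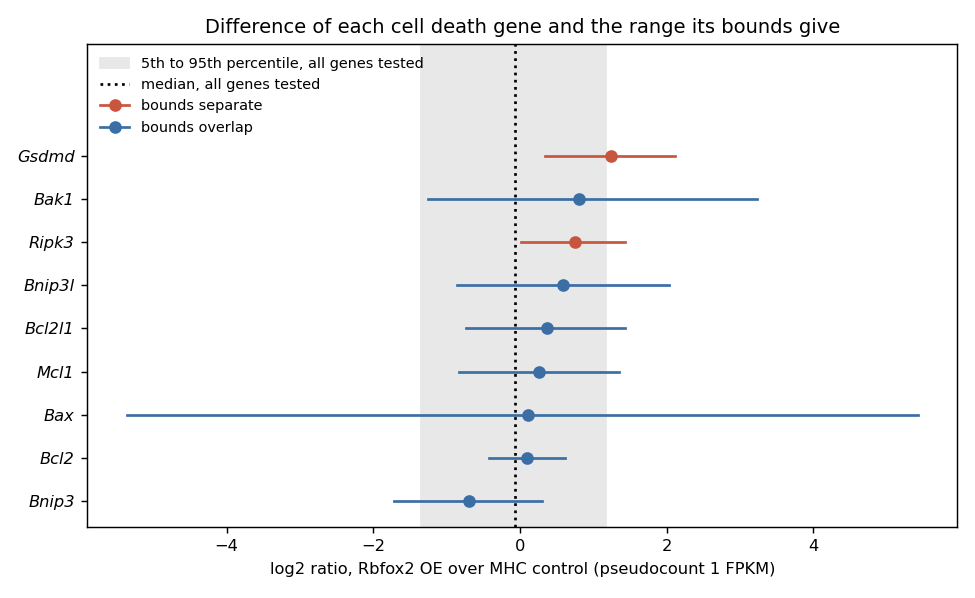
Log2 ratio (points, Rbfox2 OE divided by MHC control, pseudocount 1 FPKM) for each of the 9 genes, with lines from the farthest pairs of bounds, the median of all genes compared (dotted) and their 5th to 95th percentile (grey, -1.35 to 1.17). The point of Gsdmd (1.24) lies outside the grey band and the line of Bax spans the widest range.

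In the order of levels, neighbours were mostly not distinguishable. In the control the order was Bnip3, Mcl1, Bnip3l, Bcl2l1, Bak1, Bax, Gsdmd, Bcl2 and Ripk3, and separate bounds divided neighbours only between Mcl1 and Bnip3l and between Gsdmd and Bcl2. In Rbfox2 OE, Mcl1 stood above Bnip3 and Ripk3 above Bcl2, and the single separate pair was Gsdmd and Ripk3. The change of place between Bnip3 and Mcl1 lay within their bounds in both groups.

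Markers of other cells differed between the groups along with Ripk3 and Gsdmd, both of which are also made by leukocytes. Of 12 macrophage and leukocyte markers, 11 were higher in Rbfox2 OE with separate bounds, and their summed level was 144 FPKM in MHC cells and 518 FPKM in Rbfox2 OE cells, a ratio of 3.60. Lyz2, the most abundant of them, measured 41.3 and 170 FPKM. All 4 neutrophil markers were higher with separate bounds, with sums of 8.66 and 90.5 FPKM. Adgre1 of the macrophage list, and Csf3r and Retnlg of the neutrophil list, passed the minimum only through Rbfox2 OE. The counts of both lists include them. No marker of either list was at 0. Of 8 cardiomyocyte markers with an estimate, 5 were lower with separate bounds and 0 higher, and the sums were 58549 and 36784 FPKM. Fibroblast markers summed to 213 and 504 FPKM, and smooth muscle and pericyte markers to 140 and 319 FPKM. Endothelial markers differed less, with sums of 484 and 724 FPKM, and 2 of 7 were higher with separate bounds. Of all genes compared, 6.67% were higher and 9.33% lower with separate bounds. The part of these marker differences in the values of Ripk3, Gsdmd and the other cell death genes named below was not tested. In such bulk RNA, fewer cells of a type and less RNA per cell cannot be told apart.

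The partners of the 2 lytic genes were compared from lists of other cell death genes. Over all genes compared, 6.67% were higher with separate bounds and 9.33% lower, and the median log2 ratio was -0.06. Of 6 necroptosis genes, 2 were higher with separate bounds and 1 was lower, with a median log2 ratio of 0.57. Mlkl, the substrate of RIPK3 that breaks the plasma membrane, measured 1.14 FPKM in MHC cells (0.589 to 1.68) and 3.80 FPKM in Rbfox2 OE cells (2.30 to 5.30). Zbp1, a nucleic acid sensor that engages RIPK3, measured 0.426 FPKM (0.0933 to 0.758) and 6.68 FPKM (3.38 to 9.97). It passed the minimum only through Rbfox2 OE, and both the count of 2 higher genes and the median of 0.57 include it. Ticam1, the adaptor of the receptor TLR3, went the other way, with 6.49 FPKM (4.41 to 8.56) and 2.23 FPKM (1.41 to 3.05). Of the 6 inflammasome and pyroptosis genes compared, 2 were higher with separate bounds and 0 lower, with a median of 0.62. Aim2 and Il1b among them passed the minimum only through Rbfox2 OE, and without a filter on low values the median was 0.34. Casp4, the caspase that cuts gasdermin D in response to bacterial lipopolysaccharide, measured 5.01 FPKM (2.79 to 7.22) and 16.6 FPKM (9.72 to 23.5). Il1b, the cytokine released through gasdermin pores, measured 0.781 and 9.38 FPKM, again under 1 FPKM in MHC cells.

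Genes of the death receptor route were higher in part. Of 8 genes, 3 were higher with separate bounds and 0 lower, against 6.67% and 9.33% of all genes. Their median log2 ratio was 0.58, against -0.06 for all genes. Tnfrsf1a, the receptor of tumour necrosis factor, measured 17.3 FPKM in MHC cells (11.4 to 23.2) and 55.2 FPKM in Rbfox2 OE cells (35.7 to 74.6). Fas, the receptor of Fas ligand, measured 9.12 FPKM (6.01 to 12.2) and 21.5 FPKM (14.1 to 28.8). Casp8, the caspase that these receptors activate and that restrains RIPK3, measured 2.28 FPKM (1.34 to 3.22) and 6.17 FPKM (3.94 to 8.40).

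The mitochondrial route downstream of BAX and BAK was read from 14 genes of the apoptosome, caspases and their inhibitors. Of these, 0 were higher with separate bounds and 2 lower, too few to set the list apart from the 6.67% and 9.33% of all genes. The median log2 ratio of -0.0023 turned above 0 under both other scalings. Aifm1, the apoptosis-inducing factor, which also serves respiratory chain assembly, measured 48.5 FPKM in MHC cells (34.1 to 62.9) and 22.8 FPKM in Rbfox2 OE cells (15.8 to 29.7). Diablo, which relieves caspase inhibition once released from mitochondria, measured 40.4 FPKM (27.5 to 53.4) and 20.1 FPKM (13.4 to 26.8), though it lies in a locus of 5 genes. Both code for proteins housed in mitochondria. None of the 7 BH3-only and Bok genes compared had separate bounds, with a median of 0.43. That median is the value of Bok, which like Bid and Bmf passed the minimum only through Rbfox2 OE. Among the other pro-survival relatives, 2 were compared, and they went opposite ways. Bcl2l2, which codes for BCL-W, was the more abundant and was named after its values were seen. It measured 19.3 FPKM in MHC cells (10.8 to 27.8) and 9.15 FPKM in Rbfox2 OE cells (3.77 to 14.5), a ratio of 0.474 with overlapping bounds. Bcl2a1b, a haematopoietic BCL2 relative, was higher with separate bounds, at 0.765 and 4.81 FPKM, and passed the minimum only through Rbfox2 OE. It has near-identical copies among which fragments may be divided. The summed level of the list was 20.2 and 16.6 FPKM.

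**Figure D3:**
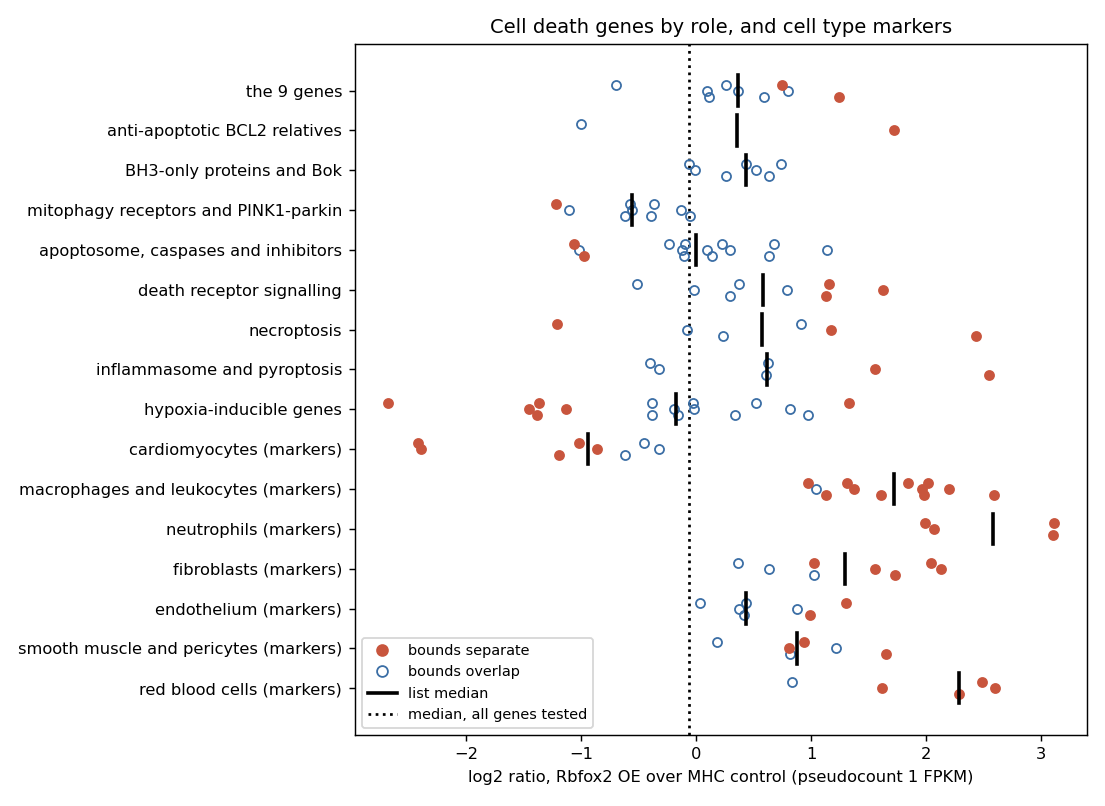
Log2 ratios of single genes (points, filled where the bounds are separate) for the 9 genes, 8 lists of related genes and 7 lists of cell type markers, with list medians (bars) and the median of all genes compared (dotted line). The markers of cells other than cardiomyocytes have all their points above 0, and the cardiomyocyte markers have all theirs below 0, as do the mitophagy genes, of which 2 turn above 0 on rescaling.

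The BNIP3 pair was set beside other genes of mitochondrial removal. All 9 of the mitophagy genes compared had log2 ratios below 0 as deposited, from -1.22 to -0.05, but Fundc2 turned above 0 on centring and both Fundc2 and Pgam5 did on rescaling. Their median was -0.56, against 0.59 for Bnip3l. The bounds were separate for 1 of them, where 9.33% of all genes were lower with separate bounds. This was Park2, the ubiquitin ligase parkin, at 5.16 FPKM in MHC cells (2.78 to 7.54) and 1.64 FPKM in Rbfox2 OE cells (0.710 to 2.57). It lies in a locus of 7 genes. Nipsnap1, of the same list but with a mean under 1 FPKM, was not compared. It went the other way, at 0.382 FPKM in MHC cells and 0.595 FPKM in Rbfox2 OE cells, with overlapping bounds. Red blood cell markers, of cells in whose maturation NIX removes mitochondria, were higher with separate bounds for 4 of 5, with sums of 56.6 and 295 FPKM. Hba-a2 and Alas2 among these markers passed the minimum only through Rbfox2 OE. The part of red blood cells in the Bnip3l value was not tested. The ratio of Bnip3, 0.615, lay inside the range of the 8 single cardiomyocyte markers, which ran from 0.184 to 0.802. Their median log2 ratio was -0.94 against -0.70 for Bnip3, and their part in its value was not tested either.

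Bnip3 was also set beside 16 other hypoxia-inducible genes and hypoxia factors. Of these, 5 were lower with separate bounds and 1 higher, against 9.33% and 6.67% of all genes. The median log2 ratio of the list was -0.18 and stayed below 0 under both other scalings. Hk2, the hexokinase that docks on mitochondria, measured 77.3 FPKM in MHC cells (54.2 to 100.3) and 11.2 FPKM in Rbfox2 OE cells (7.35 to 15.1). Vegfa, the vascular growth factor, measured 141 FPKM (87.7 to 194) and 50.8 FPKM (28.5 to 73.2). Egln3, an oxygen-sensing hydroxylase, had a log2 ratio of -1.38 and Pdk1, a kinase that closes pyruvate entry to mitochondria, one of -1.37. The fifth lower gene, P4ha2 (-1.13), and the higher gene, Ddit4 (1.33), were named after their values were seen. The list was thus mixed. Its log2 ratios ran from -2.68 to 1.33, wider than the 5th to 95th percentile of all genes, -1.35 to 1.17. That Bnip3 lay between these extremes therefore says little about Bnip3. Several of the genes named from the cell death and hypoxia lists overlap other annotated genes, so their values are less certain. They are Fas, Casp8, Mlkl, Il1b, Aim2, Bid, Bcl2l2, Bcl2a1b, Bcl2a1d, Apaf1, Diablo, Park2, Fundc2, Pgam5, Nipsnap1 and Hk2.

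**Figure D4:**
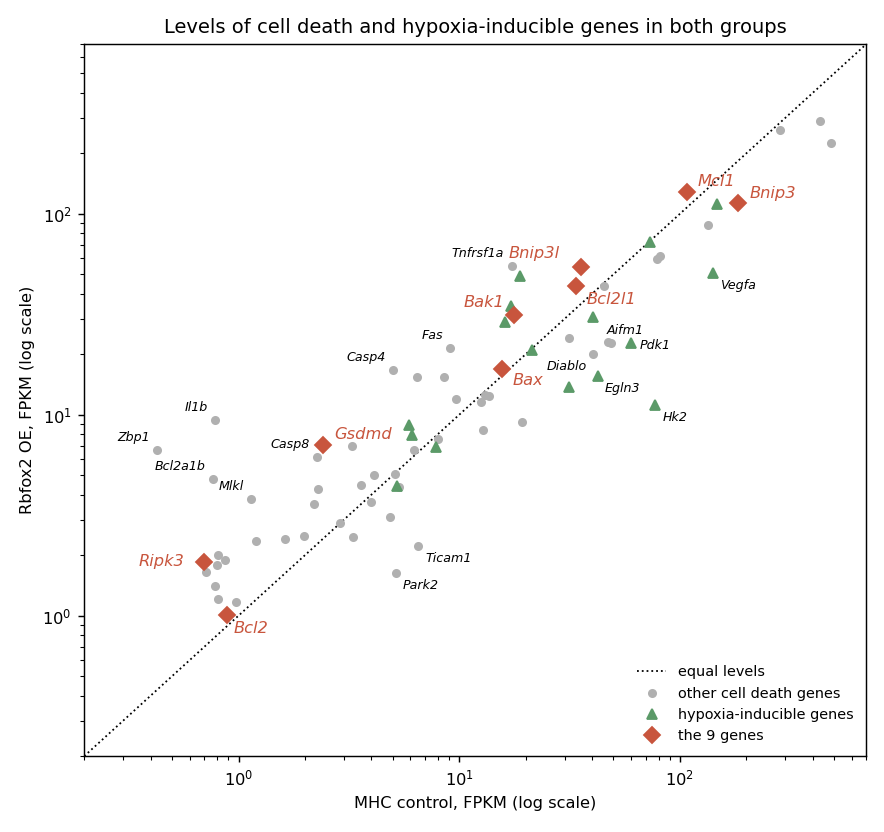
Pooled FPKM in MHC control (horizontal) and Rbfox2 OE (vertical), both on log axes, of the 9 genes (diamonds), other cell death genes (circles) and hypoxia-inducible genes (triangles), with the line of equal levels (dotted). Gsdmd and Ripk3 lie above the line at low levels, and Bnip3 lies below it near the top of the range.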

How the data were processed

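RNA of isolated mouse cardiomyocytes was sequenced after polyA selection with a stranded TruSeq kit on an Illumina HiSeq4000, per the labels' protocols. The deposited values are FPKM, computed by the authors with Cuffdiff, version 2.2.1 per the submitters' processing notes, which also name STAR 2.4.2a and the builds GRCm38 and mm10. The normalization mode, annotation, strand setting and level of the bounds are not given in the sources used here. The table pools the 2 libraries of a group, and the number of unused columns of per-sample values was 0. Depth in reads is unknown. Genes with a single transcript of 107 bases fell on steps, the smallest at 22.0 FPKM for MHC and 19.6 FPKM for Rbfox2 OE, which gives a relative but not an absolute depth.

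Rows sharing 1 of 110 gene names were summed. The log2 ratio used a pseudocount of 1 FPKM, and counts used genes whose mean reached 1 FPKM, a 2-fold threshold and separate bounds. Calculations ran in Python 3.11.15 with pandas 2.3.3 and were tested on simulated data. Limma, planned in case of values per library, could not be used. Named were the 9 genes and, per list, up to 4 genes with separate bounds. The members and lists were chosen with earlier results of these data known. Alternatives covered the pseudocount, the low-value filter, the fold threshold, scaling, status, repeated names and the mean in place of the median.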

Additional observations from a re-analysis of the deposited data

How the results depend on the processing

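No paired analysis was possible because each group has a single pooled value, and for the same reason no fit left out a library. How far the libraries of a group differ is unknown, and so is the depth, which limits Bcl2, Ripk3 and the other genes near 1 FPKM most.

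The log2 ratios of the 9 genes kept their direction in all 36 values computed under other pseudocounts and scalings. The count of members with separate bounds, 2, stayed at 2 without a filter and under both scalings, and was 0 with a minimum mean of 5 FPKM, which leaves out Ripk3 and Gsdmd. The count at least 2-fold apart, 1, was 2 with a pseudocount of 0.1, 0 with a pseudocount of 5, 0 with the minimum of 5 FPKM and 5 with a 1.5-fold threshold. Over all genes, 1987 were at least 2-fold apart, 863 with a pseudocount of 5 and 4520 at 1.5-fold. Of the genes with separate bounds, 58.3% were lower as deposited and 44.5% after rescaling, with 1030 higher and 827 lower. At 2-fold, the share lower was 59.0% as deposited and 46.1% after rescaling.

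List medians changed sign in 5 of 64 values. The apoptosome list went to 0.060 on centring and 0.13 on rescaling, because its median lay near 0. With a minimum of 5 FPKM, which leaves fewer genes, the BH3-only list went to -0.064 and the pro-survival relatives to -1.0. The latter, with 2 genes, also went to -0.0071 with a pseudocount of 5.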

Other observations

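Some cell death genes with a mean under 1 FPKM, left out of the counts above, also had separate bounds, and are named after their values were seen. Bcl2a1a and Bcl2a1d, copies of Bcl2a1b, measured 0.0828 and 0.0731 FPKM in MHC cells against 1.06 and 1.56 FPKM in Rbfox2 OE cells. Nlrp3, the sensor of an inflammasome that leads to gasdermin D cleavage, measured 0.367 FPKM in MHC cells and 1.16 FPKM in Rbfox2 OE cells. Pmaip1, which codes for the MCL1 antagonist NOXA, measured 0.164 and 0.681 FPKM. In the locus that the table gives to Bax, Ppp1r15a, a stress-induced phosphatase subunit, measured 37.7 FPKM (bounds 16.9 to 58.6) and 71.6 FPKM (42.0 to 101), with overlapping bounds.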
